A study of Mus musculus with 9 samples.

Results

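The 59 genes described here lie on mouse chromosome 2 on both sides of Ghrh, the gene disrupted in GHRH-KO mice. They were taken from a list of names, matched exactly to the gene symbols of the deposited tables. All 59 listed genes had an FPKM (fragments scaled to transcript length and to the size of the library) above 0 in all 9 libraries, among 14675 genes that met this filter and 24356 symbols in each table. The positions of the GENCODE M21 annotation (GRCm38, the same assembly as mm10) place all 59 within 6 Mb of Ghrh, 42 towards the centromere and 17 towards the telomere. The interval also holds 71 other tested genes, which are counted beside the 59. Brown adipose tissue was sequenced from GHRH-KO mice (2 females and 2 males) and littermate WT controls (3 females and 2 males), each library coming from 1 mouse. Both genotypes were bred on a mixed C57BL6 and 129SV background in 1 colony. The labels and methods give neither the age of the mice nor which part of Ghrh was disrupted, and the study's table of animal data was not used here.

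Ghrh encodes the hypothalamic hormone that drives growth hormone release from the pituitary, and brown adipose tissue is the heat-producing fat that carries Ucp1 in its mitochondria. The neighbours of Ghrh share its place on the chromosome rather than a pathway. Among them are a component of the autophagosome membrane, a sarcomeric myosin, proteins of the spliceosome and of protein glycosylation, translation factors and the tyrosine kinase Src. When a gene is targeted in cells of one mouse strain and the mutation is bred onto another, the chromosome segment around it is inherited with it, so the flanking genes of KO and WT littermates can differ in strain of origin. By the labels, all 4 KO libraries come from mice with the targeted chromosome, and FPKM hold no allele information. Differences carried by linked sequence and a response to the loss of Ghrh therefore cannot be told apart in these values.

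Ghrh itself (chr2:157329497-157347506, minus strand) was above 0 FPKM only in libraries labelled KO. It was at 0 FPKM in all 5 libraries labelled WT. In the libraries labelled KO it was at 0.846 and 0.233 FPKM in females and 0.799 and 0.470 FPKM in males. The groups did not overlap (exact permutation p = 0.00794, two-sided and the smallest the design allows, and 0.0167 with the labels permuted within sex). FPKM of a whole gene do not show which part of Ghrh the reads cover, and the cause of this difference was not tested. Directions below follow the labels, so KO stands for a library labelled KO. Library KO male 1 stood apart, with Spearman correlations of 0.924 to 0.934 with the others, against 0.958 to 0.991 among the other 8. Its summed FPKM of lymphocyte markers was 179, against at most 3.13 elsewhere, and that of macrophage markers was 401, against at most 96.0. Brown adipocyte markers were present throughout (summed FPKM 6400 to 8284 in KO and 6023 to 7843 in WT), and 0 of 10 were called different between genotypes. Skeletal muscle markers were higher in KO (summed FPKM 2816 to 12620, against 448 to 2401 in WT, with 3 of 13 called and none at 0). White adipocyte markers were lower (504 to 767 against 815 to 1336, with 1 of the 6 tested called and Hoxc9 and Tcf21 at 0 in a library). Fibroblast markers had 3 of 5 called lower (105 to 183 against 137 to 246). In whole tissue, fewer cells of a type and less RNA per cell cannot be told apart, and the part of these markers in the results below was not tested.

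Of the 59 flanking genes, 7 differed between genotypes. Myh7b, Dusp15 and 6820408C15Rik were higher in KO, by 9.90-fold, 3.86-fold and 3.80-fold. Cdk5rap1, Epb4.1l1, Map1lc3a and Cpne1 were lower, by 1.83-fold, 1.64-fold, 1.56-fold and 1.32-fold. All 7 lie on the centromere side of Ghrh, which holds 42 of the 59. The test was limma on log2 FPKM, with KO minus WT averaged over both sexes and Benjamini-Hochberg adjustment at 0.05 over all 14675 genes. The 7 called genes were 11.9% of the 59, where 3.60% of all tested genes were called (1.43% higher and 2.17% lower in KO). The list was drawn up with results of these data known, however. All 7 stand among its first 10 names, and of the other 49 genes 0 were called. Among the 49, 9 (18.4%) had an unadjusted limma p under 0.05, where 20.2% of all tested genes reached that level. The 49 are what was left once the genes with calls were set apart, so their low counts, here and below, were partly fixed in advance. They are not a like comparison for all tested genes, which kept their calls. Of the 71 tested genes of the interval that are not on the list, 7 (9.86%) were called, 4 higher and 3 lower.

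The number of calls rested on single libraries. It fell to 0 of 59 when WT female 1, WT female 2, WT female 3, KO female 1, KO female 2 or WT male 2 was left out, settings in which 8 to 37 genes were called among all tested. It was 7 without KO male 1 (11.9%, against 3.01% of all genes), 5 without WT male 1 (8.47% against 5.56%) and 10 without KO male 2 (16.9% against 7.53%). No called gene of the 59 changed direction under any of the 116 alternative values computed for the 7. Only median centring and quantile normalization could have changed it, since KO and WT libraries did not overlap for these 7 genes.

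**Figure D1:**
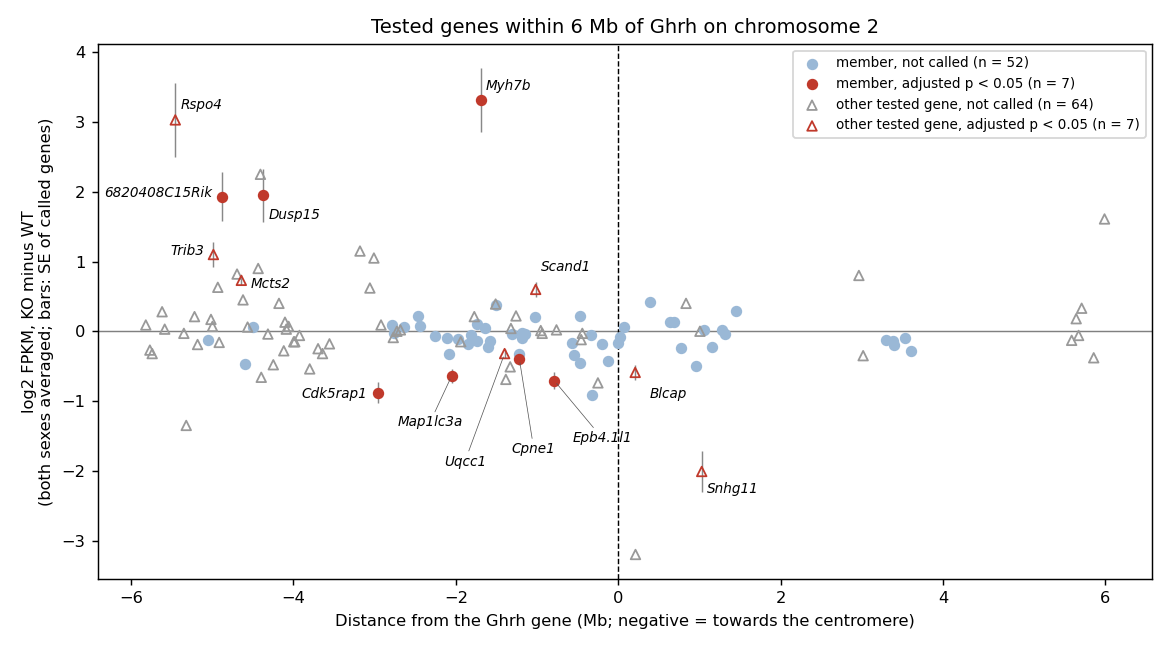
Difference in log2 FPKM (KO minus WT, both sexes averaged) of the 130 tested genes within 6 Mb, against distance from Ghrh in Mb, with negative distances towards the centromere. Filled circles are the 59 listed genes and open triangles the other 71, red marks an adjusted limma p under 0.05 and bars are standard errors; the called genes lie from 5.45 Mb on the centromere side (Rspo4) to 1.03 Mb on the telomere side (Snhg11).

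The ordinary linear model of the study's methods, whose genotype term compares KO with WT females and which calls an unadjusted p under 0.01, picked 9 of the 59 (15.3%, against 3.43% of all tested genes), 4 higher (6.78%, against 1.38%) and 5 lower (8.47%, against 2.04%). These were 6 of the 7 above, without Epb4.1l1, and Csnk2a1, Cbfa2t2 and 5430405H02Rik. All 9 are among the first 10 names of the list, and 0 of the other 49 were called. With Benjamini-Hochberg adjustment this model called 0 of the 59, and only 1 of all 14675 tested genes (0.00681%).

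Of the 4 genes of autophagy, membrane sorting and cell survival, 2 fell and 2 did not pass the test. Among all tested genes, 2.17% were called lower and 1.43% higher in KO. Every gene that fell or rose in this and the later groups is among the first names of the list. Because the list was drawn up with results known, the counts by group cannot show that a function was affected. Map1lc3a (chr2:155276297-155278073, plus strand) encodes an LC3 protein that is coupled to lipid on autophagosome membranes. It was at 149, 129 and 139 FPKM in WT females, 103 and 141 in WT males, 85.1 and 92.4 in KO females and 80.1 and 74.9 in KO males. The highest KO library lay below the lowest WT library, and both sexes moved alike. The mean was 83.1 ± 7.45 FPKM in KO (SD, n = 4) and 132 ± 17.8 in WT (SD, n = 5), a log2 difference of -0.64 (SE 0.10, limma adjusted p = 0.0320, and 0.00820 to 0.134 over 17 alternatives).

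Cpne1 (chr2:156071842-156111965, minus strand) encodes copine 1, a protein that binds membrane phospholipids when calcium rises. Its FPKM was 13.5, 14.1 and 13.1 in WT females, 14.9 and 15.8 in WT males, 10.4 and 10.4 in KO females, and 12.7 and 10.4 in KO males. The genotypes did not overlap, with KO male 1 closest to WT. The log2 difference was -0.40 (SE 0.08, limma adjusted p = 0.0427, and 0.0332 to 0.164 over 17 alternatives). Cpne1 shares 20008 bases of its span with Rbm12 on the same strand, so the split of reads between them is uncertain. Rbm12, which encodes an RNA-binding protein, did not pass (log2 difference -0.33, SE 0.19, limma adjusted p = 0.394). The remaining genes of this group were Chmp4b, a subunit of the ESCRT complex that pinches membranes, with a log2 difference of 0.06, and Bcl2l1, which encodes the survival protein Bcl-xL, with 0.06.

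Of the 6 genes of the cytoskeleton, motors and muscle, 1 rose and 1 fell (1.43% and 2.17% of all tested genes did). The sign was the same in females and males for all 6, the 2 called genes included, and for 58.1% of all tested genes. Myh7b (chr2:155611212-155634307, plus strand) encodes a slow-type sarcomeric myosin heavy chain. It was low in WT, at 0.0469, 0.0510 and 0.0642 FPKM in females and 0.0540 and 0.0177 in males. In KO it reached 0.364 and 0.663 FPKM in females and 0.230 and 0.474 in males. Every KO library lay well above every WT library. The log2 difference was 3.31 (SE 0.46, limma adjusted p = 0.0285, and 0.00912 to 0.104 over 16 alternatives), the largest among the 59. It shrank to 0.45 when 1 FPKM was added before the log, as it does for genes this low, and kept a limma adjusted p of 0.0381.

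Skeletal muscle markers moved in the same direction as Myh7b. Their summed FPKM was 2401, 1567 and 1204 in WT females, 2203 and 448 in WT males, 6391 and 2816 in KO females, and 12620 and 6481 in KO males. Within KO, KO female 2 had the highest Myh7b and the lowest marker sum, and KO male 1 the lowest Myh7b and the highest marker sum. Within WT, WT male 2 was lowest for both. The part of muscle RNA in the Myh7b difference was not tested. Myh7b shares 37 bases of its span with Trpc4ap on the opposite strand, and Trpc4ap, which is far more abundant (28.8 to 33.8 FPKM), had a log2 difference of 0.05 (limma adjusted p = 0.762). Whether strand was kept in the libraries is not given in the sources used here. Inside Myh7b lies Mir499, listed at 0 FPKM in every library, which in poly(A) RNA gives no level for a mature microRNA. Its mature 5p strand (chr2:155622893-155622913, plus strand, GRCm38.p6, RefSeq) is shown because it lies within the gene that differed most among the 59, with the seed (bases 2 to 8) in capitals.
mmu-miR-499-5p: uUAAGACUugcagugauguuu

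Epb4.1l1 (chr2:156420909-156543214, plus strand) encodes band 4.1N, which links membrane proteins to actin and spectrin. At 0.786 Mb it was the called gene of the 59 nearest to Ghrh. Its FPKM was 15.5, 12.5 and 13.6 in WT females, 13.6 and 15.4 in WT males, 9.16 and 9.38 in KO females, and 6.74 and 9.64 in KO males. The genotypes did not overlap. The log2 difference was -0.71 (SE 0.12, limma adjusted p = 0.0352, and 0.0164 to 0.139 over 17 alternatives).

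The 4 other genes of this group had estimates below 0 and did not pass the test. Dynlrb1, a light chain of the dynein motor, was at 124 to 161 FPKM in WT and 100 to 116 in KO, with no overlap, and just missed the threshold (log2 difference -0.33, SE 0.07, limma adjusted p = 0.0549). Myl9, a regulatory light chain of smooth muscle and non-muscle myosin, also did not overlap, at 26 to 30.4 FPKM in WT and 16.8 to 25.4 in KO (log2 difference -0.34, limma adjusted p = 0.179). It was called when KO male 1 was left out (limma adjusted p = 0.0419). Dsn1, a kinetochore subunit, had the largest negative estimate among the 59 (log2 difference -0.92, SE 0.32, limma adjusted p = 0.159), with KO male 1 at 0.598 FPKM, above all WT libraries, and the other 3 KO libraries at 0.136 to 0.271. Dlgap4, a scaffold protein, had -0.17.

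Of the 6 genes of RNA processing and RNA binding, 1 fell (2.17% of all tested genes did). Cdk5rap1 (chr2:154335380-154373010, minus strand) encodes the enzyme that adds a methylthio group to mitochondrial transfer RNAs. Its FPKM was 6.22, 8.36 and 9.68 in WT females, 5.80 and 7.12 in WT males, 4.04 and 4.40 in KO females, and 3.43 and 3.78 in KO males. No KO library reached the lowest WT library. The log2 difference was -0.88 (SE 0.15, limma adjusted p = 0.0347, and 0.0276 to 0.134 over 17 alternatives).

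The other RNA genes did not pass. Ctnnbl1, a spliceosome-associated protein, and Dhx35, an RNA helicase, had log2 differences of 0.42 (SE 0.13) and 0.29 (SE 0.12), with limma adjusted p = 0.129 and 0.219. The Dhx35 libraries did not overlap, at 2.49 to 2.79 FPKM in KO and 1.85 to 2.36 in WT. Raly, an RNA-binding protein with the highest mean FPKM of the group, was at 0.22 and Rbm39, a splicing factor, at -0.04. Raly was at 0.06 without KO male 1 and 0.38 without KO male 2, where it was called (limma adjusted p = 0.0304).

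Among 10 kinases, phosphatases and signalling genes, 1 rose (1.43% of all tested genes did). Dusp15 (chr2:152940997-152951698, minus strand) encodes a dual-specificity phosphatase. It was low throughout, at 0.0541, 0.116 and 0.0778 FPKM in WT females, 0.182 and 0.107 in WT males, 0.333 and 0.700 in KO females, and 0.359 and 0.319 in KO males. Every KO library lay above every WT library. The log2 difference was 1.95 (SE 0.38, limma adjusted p = 0.0411, and 0.0394 to 0.134 over 16 alternatives). With 1 FPKM added before the log it was 0.35 and missed the threshold (limma adjusted p = 0.0522).

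Csnk2a1, the catalytic subunit of casein kinase 2, was called by the linear model but not by limma. Its FPKM lay between 28.3 and 30.9 in WT and between 26.6 and 28.2 in KO, which did not overlap although the log2 difference was only -0.13 (SE 0.05, limma adjusted p = 0.242). The signalling genes with no call included Itch, a ubiquitin ligase (-0.10), Plcg1, a phospholipase C (-0.14), Ralgapb, a subunit of the Ral GTPase-activating complex (0.02), Tti1, a cofactor for kinases of the mTOR family (0.13), and Ndrg3 (-0.06). Ndrg3 had the highest mean FPKM of the group.

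Of the 2 genes with no assigned role, 6820408C15Rik (chr2:152415587-152444330, plus strand) rose (1.43% of all tested genes did). Its FPKM was 0.0525, 0.0574 and 0.101 in WT females, 0.0472 and 0.0480 in WT males, 0.276 and 0.406 in KO females, and 0.116 and 0.166 in KO males. The groups did not overlap, but the lowest KO library was close to the highest WT library. The log2 difference was 1.93 (SE 0.35, limma adjusted p = 0.0370, and 0.0344 to 0.134 over 16 alternatives), and 0.22 with 1 FPKM added before the log (limma adjusted p = 0.0417). The other, 5430405H02Rik, was at 1.44 to 1.83 FPKM in WT and 1.05 to 1.59 in KO (log2 difference -0.45, SE 0.14, limma adjusted p = 0.122), and was called by the linear model. It shares 11220 bases with Tgif2 on the opposite strand, and reads of the pair cannot be assigned to one without strand.

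**Figure D2:**
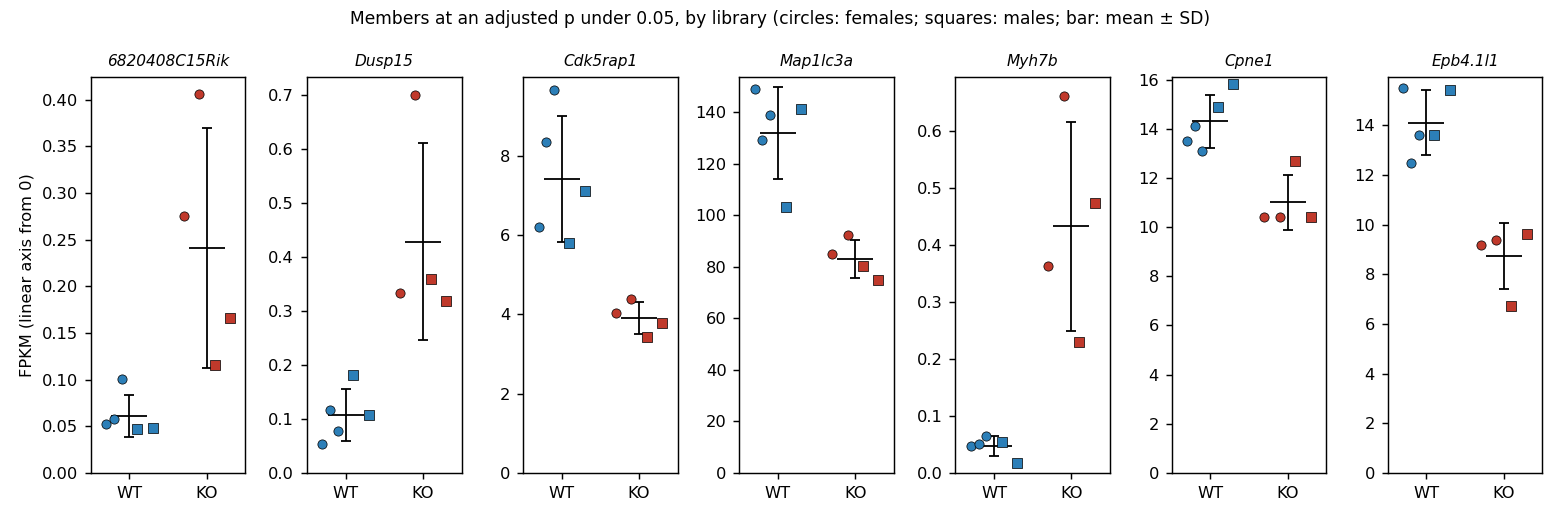
FPKM of the 7 called genes in each library, on linear axes from 0, with WT in blue, KO in red, females as circles and males as squares, and the bar and whiskers giving mean ± SD (n = 5 WT and 4 KO). In each panel the genotypes do not overlap, with Myh7b at 0.0177 to 0.0642 FPKM in WT and 0.230 to 0.663 in KO.

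In the other 5 groups no gene passed the adjusted test, as 3.60% of all tested genes did. The 4 adipocyte, extracellular and plasma factors all had estimates below 0, as did 62.5% of all tested genes. Adig, which encodes adipogenin, a small protein of fat cells, was at 231 to 332 FPKM in WT and 175 to 290 in KO (log2 difference -0.23, SE 0.09, limma adjusted p = 0.232). Tgm2, a transglutaminase that cross-links proteins, had -0.24 (SE 0.08, limma adjusted p = 0.156), Lbp, the lipopolysaccharide-binding protein, -0.50 (SE 0.32) and Procr, the endothelial protein C receptor, -0.14 (SE 0.44). The 5 genes of the endoplasmic reticulum and secretory pathway were also all below 0, from -0.22 for Edem2, which acts on misfolded glycoproteins, to -0.04 for Ergic3, a cargo receptor. Their limma adjusted p ran no lower than that of Edem2, 0.388.

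The 8 metabolic and mitochondrial genes had a median log2 difference of -0.08, and 0 reached an unadjusted limma p under 0.05 (20.2% of all tested genes did). Romo1, a small protein of the mitochondrial membrane, was the most abundant, at 193 to 230 FPKM in WT and 171 to 213 in KO (log2 difference -0.09). Acss2, which makes acetyl-CoA from acetate, varied widely from mouse to mouse, from 42.2 to 148 FPKM in KO and from 43.5 to 116 in WT (log2 difference 0.11, SE 0.38). Gss, the glutathione synthetase, had -0.14, Ahcy, which hydrolyses S-adenosylhomocysteine, -0.07, and Nfs1, the cysteine desulfurase that feeds iron-sulfur clusters, -0.02.

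Of the 12 transcription and chromatin genes, 0 passed limma (3.60% of all tested genes did) and 1 passed the linear model (3.43% did). Cbfa2t2, a transcriptional corepressor, was at 2.34 and 2.28 FPKM in KO females against 1.86 to 2.02 in WT females, and was called by the linear model. In males the values were 2.38 and 2.25 in KO against 2.45 and 2.46 in WT, so that the averaged log2 difference was only 0.09 (SE 0.10, limma adjusted p = 0.708). Id1, an inhibitor of helix-loop-helix factors and the most abundant of the group, had -0.47 (SE 0.16, limma adjusted p = 0.147), with KO male 1 lowest at 36.0 FPKM. It was called without KO male 2 (limma adjusted p = 0.0280). Both translation genes were above 0. Eif6, an initiation factor that binds the large ribosomal subunit, was at 23.5 to 28.9 FPKM in KO and 16.9 to 22.1 in WT, without overlap (log2 difference 0.37, SE 0.10, limma adjusted p = 0.0799), and was called after quantile normalization (limma adjusted p = 0.0393). Eif2s2, a subunit of the factor that brings the initiator transfer RNA, had 0.07.

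Over the 59, the median log2 difference was -0.09, against -0.07 over all tested genes, and the median absolute difference was 0.17, against 0.19. For 40 genes (67.8%, against 60% of all) it was within 0.25, and 39 estimates were below 0 (66.1%, against 62.5%) and 20 above. The genotypes did not overlap in 12 of the 59 (20.3%, against 9.07% of all tested genes), 5 higher in KO (8.47%, against 3.03%) and 7 lower (11.9%, against 6.04%). These were the 7 called genes and Csnk2a1, Dynlrb1, Myl9, Dhx35 and Eif6. Among the 49 genes after the first 10 names, 4 did not overlap (8.16%).

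**Figure D3:**
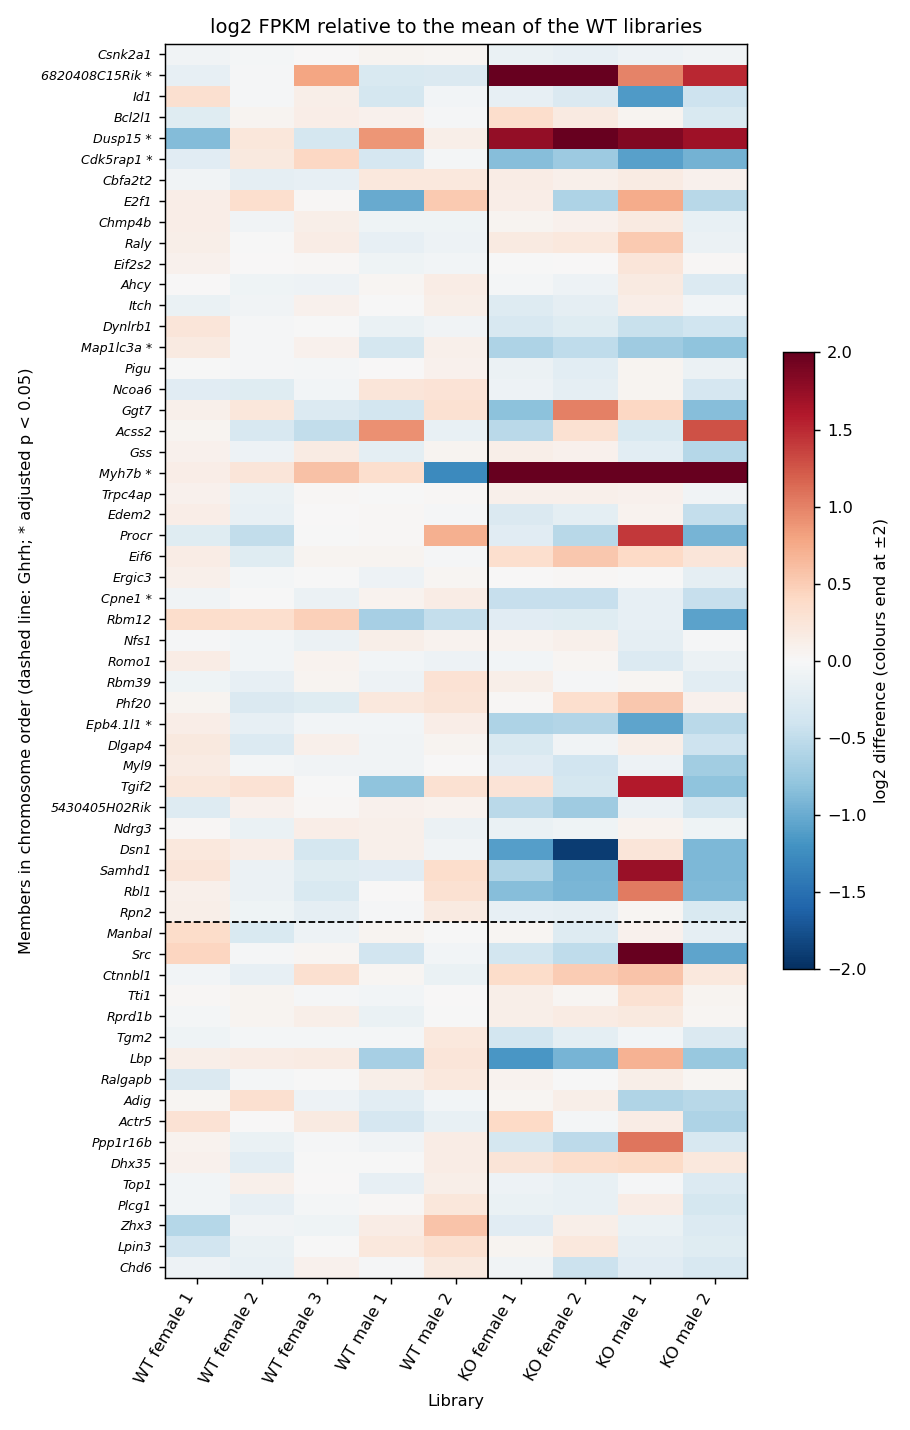
log2 FPKM of the 59 genes in each of the 9 libraries, relative to the mean of the 5 WT libraries, in chromosome order from the centromere side with a dashed line at the place of Ghrh. Blue is lower and red higher, colours end at ±2, asterisks mark the 7 called genes, and the KO male 1 column holds the highest value of all 9 libraries in 19 genes.

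The genes next to Ghrh did not pass the test. Rpn2, a subunit of the oligosaccharyltransferase that glycosylates proteins, lies 3.18 kb from Ghrh and was at 32.3 to 41.5 FPKM in WT and 29.7 to 37.6 in KO (log2 difference -0.17, SE 0.10, limma adjusted p = 0.416). Manbal, 20.1 kb away on the telomere side, was at 9 to 14.3 FPKM in WT and 9.25 to 11.8 in KO (log2 difference -0.08, SE 0.15, limma adjusted p = 0.842). The groups overlapped for both. Src at 70.9 kb, the cell-cycle regulator Rbl1 at 0.125 Mb and the nucleotide hydrolase Samhd1 at 0.194 Mb did not pass either (log2 differences 0.06, -0.43 and -0.18). The tested gene with a call nearest to Ghrh was Blcap, 0.209 Mb away on the telomere side and not on the list, at 37.1 to 59.5 FPKM in WT and 28 to 35.2 in KO (log2 difference -0.59, SE 0.11, limma adjusted p = 0.0406, and 0.0156 to 0.158 over 17 alternatives). The imprinted gene Nnat, 1 of the white adipocyte markers summed above, lies within Blcap on the opposite strand, so that reads of the pair could be confused. It was at 0.763 to 24.3 FPKM in WT and 0.421 to 1.02 in KO (log2 difference -3.20, SE 0.92, limma adjusted p = 0.0983, and 0.00625 to 0.251 over 17 alternatives).

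Src, Samhd1 and Rbl1 shared a pattern in which 1 library set the estimate. Src was at 3.24 FPKM in KO male 1 and at most 1.08 in the other 8 libraries. Samhd1 was at 21.2 FPKM in KO male 1 and at most 8.20 elsewhere, and Rbl1 at 1.61 and at most 0.966. The other 3 KO libraries were lower for all 3 genes, at 0.388 to 0.621, 3.37 to 4.24 and 0.418 to 0.433 FPKM. The log2 difference of Src was -0.71 without KO male 1 (not called) and 0.82 without KO male 2 (limma adjusted p = 0.0493). Tgif2, Ppp1r16b and Procr were also highest in KO male 1, by 2.44, 1.89 and 1.63 times the next library. In all, KO male 1 held the highest value of 19 of the 59 genes, and KO male 2 the lowest of 19. The high lymphocyte and macrophage marker sums were in this same library, KO male 1, and their part in these values was not tested.

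Females and males share no library, so their differences could be set side by side. In females 0 of the 59 passed limma (0.0204% of all tested genes did) and 13 reached an unadjusted p under 0.05 (22.0%, against 12.7%). Of these 13, 8 are among the first 10 names, and of the other 49 genes 5 reached that level (10.2%). In males 0 passed (0.0136% of all did) and 10 reached that level (16.9%, against 16.6%), while the linear model with males as reference called 4 (6.78%, against 5.29%). Of the 49 genes after the first 10 names, 4 reached an unadjusted limma p under 0.05 in males (8.16%). The sign was the same in both sexes for 42 of the 59 (71.2%, against 58.1% of all tested genes), and for 33 of the 49 after the first 10 names (67.3%). It was also the same for 7 of the 7 called genes, as for 528 of the 529 called among all tested genes, since the call was made on the average of the sexes. Across the 59 genes, which are not independent replicates, the female and male differences had a Spearman correlation of 0.30 and a Pearson correlation of 0.75, against 0.19 for both over all tested genes. Across the 49, left after the called genes had been set apart, they were 0.02 and -0.02. The Pearson value over all tested genes is a poor reference, since it is open to extreme log2 differences (-94.16 to 109.33 when the sexes are averaged). Over single chromosomes Pearson ran from -0.67 to 0.96.

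Myh7b was 3.20 higher in females and 3.42 higher in males on the log2 scale. Map1lc3a was -0.65 and -0.64, Cdk5rap1 -0.92 and -0.84, Cpne1 -0.39 and -0.42 and Epb4.1l1 -0.57 and -0.85. The pairs lay close to each other, and Dusp15 (2.62 and 1.28) and 6820408C15Rik (2.31 and 1.54) had the wider gaps. The test of the difference between the sexes itself called 0 of the 59 by limma (0% of all tested genes), with 3 at an unadjusted p under 0.05 (5.08%, against 7.01%). These were Nfs1 (0.15 in females and -0.19 in males), Adig (-0.01 and -0.45) and Lpin3, a phosphatidate phosphatase (0.31 and -0.48).

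**Figure D4:**
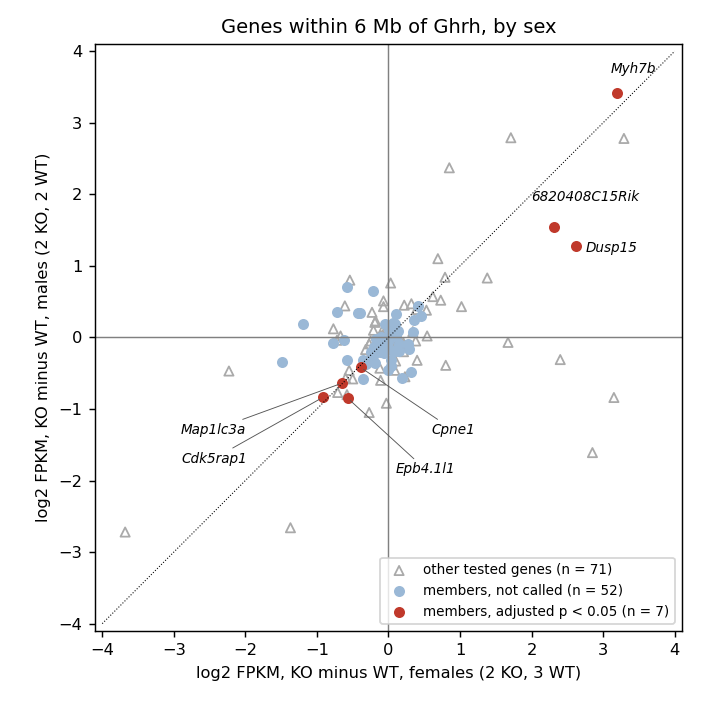
Difference in log2 FPKM (KO minus WT) in males (2 KO, 2 WT) against that in females (2 KO, 3 WT) for the 130 tested genes within 6 Mb, with the dotted line marking equal differences. The 7 called genes, in red, fall in the quadrants where both sexes have the same sign, and Myh7b lies at 3.20 and 3.42.

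Along the chromosome, the calls near Ghrh lay on its centromere side and within 1.03 Mb on its telomere side. Within 2 Mb, 7 of 59 tested genes were called (11.9%), 5 of 42 on the centromere side and 2 of 17 on the telomere side. From 2 to 4 Mb there were 2 of 31, both on the centromere side, and from 4 to 6 Mb 5 of 40, all on the centromere side and all higher in KO. From 6 to 12 Mb 1 of 104 was called, from 12 to 24 Mb 2 of 117, and farther away 28 of 775 (3.61%). The interval as a whole had 14 calls among 130 genes (10.8%), against 3.11% of chromosome 2 beyond it and 3.59% of the genes of other chromosomes, where single chromosomes ran from 2.43% to 4.80%. These shares are descriptions, since genes are not replicates. The limit of 6 Mb came with the list of names, which was drawn up with results of these data known.

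On the telomere side the last call was Snhg11, a noncoding host of small nucleolar RNAs that is not on the list, at 1.22 to 2.72 FPKM in WT and 0.154 to 0.727 in KO (log2 difference -2.01, SE 0.30, limma adjusted p = 0.0293, and 0.0165 to 0.134 over 17 alternatives). From there to the end of the chromosome 0 of 197 tested genes were called by limma (3.60% of all tested genes were), 10 of the 59 among them. Of the 197, 30 had an unadjusted limma p under 0.05 (15.2%, against 20.2% of all). The linear model called 3 of them (1.52%, against 3.43%). The count was 14 without KO male 2 (7.11%, against 7.53% of all genes), 8 without WT male 1 (4.06% against 5.56%), 2 without KO male 1 (1.02% against 3.01%) and 1 with a mean FPKM of at least 1 (5.88% of all genes). The boundary at Snhg11 was chosen after the positions of the calls had been seen.

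**Figure D5:**
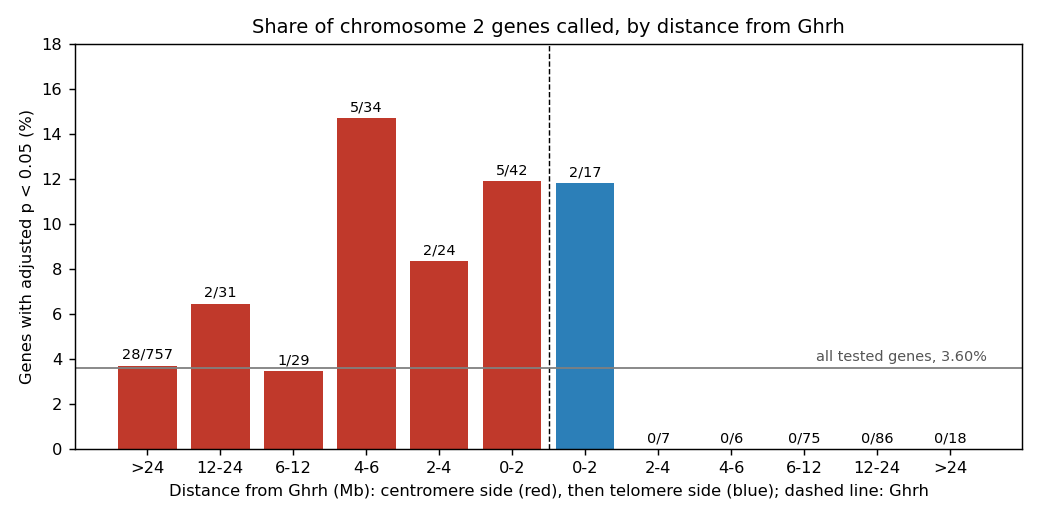
Percent of tested chromosome 2 genes with an adjusted limma p under 0.05 in bins of distance from Ghrh, on the centromere side in red and the telomere side in blue, with called and tested genes printed above each bar and a grey line at 3.60% for all tested genes. The bars within 6 Mb on the centromere side stand at 11.9%, 8.33% and 14.7%, and beyond 2 Mb on the telomere side no bar rises above 0.

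The other called genes of the interval beside Blcap and Snhg11 were on the centromere side. Mcts2, an imprinted retrogene inside H13, had the lowest adjusted p of the interval, at 8.27 to 9.99 FPKM in WT and 13.2 to 17.9 in KO (log2 difference 0.73, SE 0.07, limma adjusted p = 0.0117, and 0.00656 to 0.0826 over 17 alternatives). It lies on the same strand as H13, so reads of the 2 can be confused. Rspo4, a secreted activator of Wnt signalling, was at 0.0522 to 0.796 FPKM in WT and 0.627 to 9.34 in KO, which overlapped (log2 difference 3.03, SE 0.53, limma adjusted p = 0.0352, and 0.0162 to 0.134 over 17 alternatives). With 1 FPKM added before the log it was 1.21 and not called. Trib3, a stress-induced pseudokinase, rose by 1.10 on the log2 scale (SE 0.18, limma adjusted p = 0.0347) and Scand1 by 0.60 (SE 0.11, limma adjusted p = 0.0379), each with an adjusted limma p of 0.0233 to 0.134 over 17 alternatives. Uqcc1, an assembly factor of respiratory complex III, was at 54.8 to 61.8 FPKM in WT and 43.2 to 49 in KO (log2 difference -0.32, SE 0.06, limma adjusted p = 0.0352, and 0.0277 to 0.286 over 17 alternatives).

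Promoters of the flanking genes were searched for TTCNNNGAA, the core sequence bound by STAT5, a factor that acts downstream of the growth hormone receptor. It reads the same on both strands. Of the 59 genes, 51 matched the RefSeq promoter table (GRCm38.p6, C57BL/6J reference), with 62 promoters of 300 bases, and 6 of these held the motif (9.68%, against 8.30% of all 32851 promoters in the table). These were promoters of Pigu, Edem2, Epb4.1l1, Samhd1, Adig and Dhx35, of which Epb4.1l1 was called. A match is only a description of the letters in this window. The median number of CG pairs was 21 in the 62 promoters, 20 in those of all tested genes within 6 Mb and 7 in all promoters. The last set was not limited to genes above 0 FPKM in all 9 libraries.

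The 250 bases before the start are shown for 4 of the called genes, 5′ to 3′ on the strand of the gene from the RefSeq table, because these genes differed between genotypes. Capitals mark TTCNNNGAA. Myh7b (chr2:155610993-155611242, plus strand) holds 3 CG pairs, Cdk5rap1 (chr2:154372720-154372969, minus strand) 15, Cpne1 (chr2:156111966-156112215, minus strand) 11 and the third start of Epb4.1l1 (chr2:156475284-156475533, plus strand) 10. Map1lc3a and Dusp15 have no entry in the table, and 6820408C15Rik, which has one without the motif, is not shown.
Myh7b: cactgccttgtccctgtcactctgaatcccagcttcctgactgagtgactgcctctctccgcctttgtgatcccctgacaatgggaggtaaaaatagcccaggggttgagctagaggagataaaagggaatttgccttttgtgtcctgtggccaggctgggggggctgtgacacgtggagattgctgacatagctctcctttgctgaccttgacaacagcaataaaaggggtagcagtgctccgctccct
Cdk5rap1: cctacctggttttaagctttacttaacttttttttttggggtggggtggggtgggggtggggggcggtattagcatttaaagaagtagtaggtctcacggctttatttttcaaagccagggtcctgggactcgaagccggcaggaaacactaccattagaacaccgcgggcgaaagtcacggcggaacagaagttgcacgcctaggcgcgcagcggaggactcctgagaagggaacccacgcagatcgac
Cpne1: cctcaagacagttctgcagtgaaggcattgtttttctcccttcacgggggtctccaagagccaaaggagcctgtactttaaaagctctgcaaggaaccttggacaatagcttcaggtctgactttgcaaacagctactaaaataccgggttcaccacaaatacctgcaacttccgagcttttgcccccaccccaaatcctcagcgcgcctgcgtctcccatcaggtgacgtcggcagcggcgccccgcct
Epb4.1l1: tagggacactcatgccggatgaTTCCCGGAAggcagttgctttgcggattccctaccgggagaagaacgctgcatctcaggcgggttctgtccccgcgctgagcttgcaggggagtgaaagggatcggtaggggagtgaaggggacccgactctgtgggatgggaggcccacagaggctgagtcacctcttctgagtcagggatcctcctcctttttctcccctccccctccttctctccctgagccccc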

How the data were processed

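Poly(A) RNA of brown adipose tissue was sequenced from 9 mice on HiSeq2000 and HiSeq2500 instruments. FPKM of each gene symbol were deposited by the authors as a table for every library, after bcl2fastq 1.8.4 and TopHat2 2.0.11 on mm10, with Bowtie named for the abundances. Groups follow the labels for genotype and sex. No counts are held here, so depth is known only as estimated from low values (0.916 to 1.14 relative to WT female 1), and no intervals from counts are given. As in the methods, genes with an FPKM of 0 in any library were left out, and log2 FPKM was used without a pseudocount. Some values above 0 are vanishingly small (log2 differences run from -94.16 to 109.33 over all genes, and from -0.92 to 3.31 over the 59), and a pseudocount was tried as an alternative. limma 3.58.1 in R 4.3.3 fitted a mean per genotype and sex with a mean-variance trend over 14675 genes, tested on simulated data. The methods' ordinary linear model was run beside it. Of the tested genes 14507 were placed in GENCODE M21, 438 of them through a synonym, and distances run from gene edge to gene edge. Tables and exact permutation tests were made with pandas 2.3.3 and numpy 2.4.6 in Python 3.11.15, and figures with matplotlib 3.10.9.

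The 59 genes, role groups and marker lists were chosen with earlier results of these data known. Genes named by rule were Ghrh, the 3 tested genes nearest to it on each side, every listed gene called by limma or by the linear model, the 3 listed genes with the lowest p in females, in males and in the interaction, the most abundant gene of each role group, the 5 called genes of the interval with the lowest p that are not on the list, Mcts2 and Myh7b. Other genes were named after their values were seen. Alternatives were pseudocounts of 0.1 and 1 FPKM, a mean FPKM of at least 1, no filter, median centring, quantile normalization, no variance trend, an additive model, males as reference or sum-to-zero coding in the linear model, and leaving out each library.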

Additional observations from a re-analysis of the deposited data

Results flagged for a closer look

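In groups of 4 or 5 libraries, 11 of the 63 groups looked at held a library far from the rest, and 6 of the 11 were KO male 1. A share of such groups arises by chance. KO male 1 was the highest KO library for Samhd1 at 21.2 FPKM, Src at 3.24, Rbl1 at 1.61, Eif2s2 at 28 and Cpne1 at 12.7, and the lowest for Epb4.1l1 at 6.74. The same library held lymphocyte and macrophage marker sums of 179 and 401 FPKM.

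KO male 2 was the highest KO library for Rspo4, at 9.34 FPKM, and the lowest for Ergic3, at 36.1. Dusp15 reached 0.700 FPKM in KO female 2. Among WT libraries, 6820408C15Rik was at 0.101 FPKM in WT female 3 and 5430405H02Rik at 1.44 in WT female 1.

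Among the genes named by rule, 4 had every KO library on one side of the WT libraries in females and on the other side in males. The share of all tested genes with this pattern was not counted, and Nfs1 and Lpin3 had been named for their low interaction p. The male minus female difference of the log2 effects was -0.36 for Cbfa2t2, 0.24 for Eif2s2, -0.34 for Nfs1 and -0.79 for Lpin3. None passed the limma test of the interaction.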

How the results depend on the processing

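The number of the 59 genes called by limma, 7, became 3 with no filter (5.08%, against 0.898% of all genes), 2 after median centring (3.39% against 1.51%), 4 after quantile normalization (6.78% against 3.03%) and 0 without the variance trend (0.232% of all), and 0 to 10 when single libraries were left out. The 14 calls of the interval became 7 with no filter (6 of them among the 130 genes), 7 after median centring, 1 without the trend and 0 to 20 without single libraries. The 9 calls of the linear model became 4 after median centring (6.78%, against 2.73% of all) and 4 with males as reference (6.78% against 5.29%). They became 10 with sum-to-zero coding, which averages the sexes (16.9% against 7.54%). With Benjamini-Hochberg adjustment they became 0, where 1 of 14675 tested genes was called (0.00681%). Without single WT females they were 2 to 6 (3.39% to 10.2%, against 2.26% to 2.52% of all). The 0 calls in females stayed 0, those in males were 0 to 6 and those of the interaction 0 to 4, with 6 (10.2%, against 8.81% of all) and 4 (6.78% against 4.91%) reached without KO male 2 and 2 in males (3.39% against 2.28%) without WT male 1. Among all genes, 8 to 1105 were called without single libraries, against 529. In fits that leave 1 library in a group, that library was taken to vary like the others.

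Higher genes were 39.7% of all calls, 58.6% after median centring and 51.4% after quantile normalization. Median centring called Map1lc3a (-0.58) and Myh7b (3.37), and quantile normalization Cpne1 (-0.36), Eif6 (0.44), Map1lc3a (-0.61) and Myh7b (3.43). Of 116 alternative values for the 7 called genes, 50 kept the call, 66 lost it and 0 changed sign. Small estimates changed sign for Ergic3 (0.02 by centring, 0.01 by quantiles, -0.08 to 0.01 without single libraries), Nfs1 (0.04, 0.02 and -0.06 to 0.02), Ndrg3 (0.00 by centring), Src (-0.00 in the additive model, -0.71 to 0.82), Samhd1 (-0.84 to 0.47), Rbl1 (-0.91 to 0.05) and Manbal (-0.16 to 0.01). The cause of these shifts was not tested.

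No paired analysis was made, because the labels give each library its own number and do not give the litter. With 2 or 3 mice a group, and depth known only in relative terms, differences of low genes rest on few reads.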

Other observations

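A second group of calls lay on the same chromosome, 36.8 to 38.2 Mb from Ghrh on the centromere side, and was picked out after its values were seen. In the 2 Mb stretch that holds them, 7 of 42 tested genes were called by limma (16.7%, against 3.60% of all tested genes), 3 higher and 4 lower in KO. Gchfr, which encodes the feedback regulator of GTP cyclohydrolase, was at 74.4 and 101 FPKM in KO females and 59.1 and 80.7 in KO males. It was at 0.855 and 0.948 FPKM in WT females 1 and 2, 1.87 and 1.34 in WT males and 16.8 in WT female 3, which lay between the groups (log2 difference 5.31, SE 0.86, limma adjusted p = 0.0328). Pla2g4e, a cytosolic phospholipase A2, was also higher (log2 difference 3.02, limma adjusted p = 0.0287), as was Zfp106 (0.90, limma adjusted p = 0.0139). Chp1, Itpka, Jmjd7 and 1700020I14Rik were lower, by -0.65, -0.85, -1.13 and -0.35 on the log2 scale.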
